A study of Mus musculus with 20 samples.

Results

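RNA made within minutes of collection was measured in mouse E14 embryonic stem cells that had received no drug. The description covers the no-drug condition, 1 of the 5 conditions in the table, for all 22556 protein-coding genes listed. The study treated these cells with DRB or triptolide, inhibitors of transcription, and asked how silencing of genes bears on Polycomb recruitment; only its untreated starting point is described here. The no-drug condition comprised 4 of the 20 samples: 2 samples in which RNA was labelled for 10 min with 4-thiouridine at 150 µM, and 2 unlabelled background controls. All were wild type cells of the E14 line, grown in serum with leukemia inhibitory factor on gelatin without feeder cells named in the labels, at time 0 h. The authors deposited 1 value per gene for the condition, so no value here has a replicate error and no difference has a test.

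4-Thiouridine is a uridine analogue that cells build into RNA as it is transcribed. After a short pulse the tagged RNA can be captured, so that reads fall over introns and exons of genes being transcribed rather than over the stock of stable mRNA. In in vivo transcription capture sequencing, called iTC-seq in the labels, RNA is fragmented before the tagged fragments are captured. Embryonic stem cells divide quickly, with a short G1 phase, and keep the pluripotency factors Pou5f1, Sox2 and Nanog active while genes of later lineages are held silent, many of them under Polycomb repressive complexes. A level below is the deposited value in reads per kilobase of gene, counted over the whole gene from start to end, introns included. Values were read as a whole number of reads divided by the gene's length. A number of net reads, left after the authors' removal of negative values, was so recovered for 15058 of 15238 genes with signal. For 9912 of these the length matched an annotated gene span exactly. Where the length was solved from the values, whole numbers follow from the solution. Intervals are exact 95% Poisson intervals of those net reads. They cover counting error only, not replicate spread or the background samples.

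The 15058 genes with signal and a recovered length held 1191201 net reads in sum, and the median gene with signal held 28. Markers were compared with the label of embryonic stem cells. All 12 stem cell markers had signal and lay in the highest 10% of genes, with a summed level of 527 and a range of 8.64 to 112 reads per kb. The 7 primitive endoderm markers summed to 1.41 reads per kb, with Sox17 and Dab2 listed at 0. The 9 fibroblast and feeder markers summed to 0.459, with Col1a2, Col3a1, Dcn, Postn, Lum and Twist1 listed at 0. The 7 neural markers summed to 16.3, of which Tubb3 gave 11.1 and was the only one in the highest 10%. The 6 mesoderm markers summed to 6.33, with Tbx6 at 5.89, and the 5 trophectoderm markers to 3.17, with Krt18 at 1.84. The markers are a chosen panel, and the wider lists described below held exceptions. In the highest 10% were 9 of 10 core pluripotency, 9 of 12 naive and 15 of 21 other stem cell genes. Those outside it included Prdm14 at 1.46 and Dppa3 at 0.777. In the primitive endoderm and fibroblast lists it was 1 of 15 each, Apoe at 21.3 and Fn1 at 7.04. The 5 markers of the 2-cell-like state, Zscan4c, Zscan4d, Zscan4f, Tcstv1 and Tcstv3, were all listed at 0. How reads matching several related genes were counted is not given, so these values may not mean absent transcription. Whether counting separated the DNA strands is not given. In 57 of 57 listed gene pairs where a gene lies inside a longer gene on the opposite strand, the longer gene held at least as many net reads. The inner gene held 21 to 422 net reads, at the median 29.5% of those of the longer gene. A longer gene can also hold more reads of its own, so these pairs cannot settle how strands were counted. Wdr38, with 535 net reads, encloses the opposite-strand gene Rpl35, with 422, so a level of a gene that overlaps another may hold its neighbour's reads.

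Newly made RNA spanned more than 5 orders of magnitude between genes. Of 22556 genes, 15238 had signal (67.6%) and 7318 were listed at 0. A level above 1 read per kb was reached by 8326 genes (36.9%), above 10 by 1467 genes (6.5%), above 50 by 166 and above 100 by 61. The median over all genes was 0.308 reads per kb and the median over genes with signal 1.28. The mean of 2.98 lay above the 75th percentile of 2.38. The 2256 genes of the highest 10% started at 7.001 reads per kb and held 69.2% of the summed level. By net reads the signal was spread more widely: 1358 genes held 50% of all net reads, and the 40 genes highest in level held 9.03% of the summed level and 1.66% of the net reads.

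**Figure D1:**
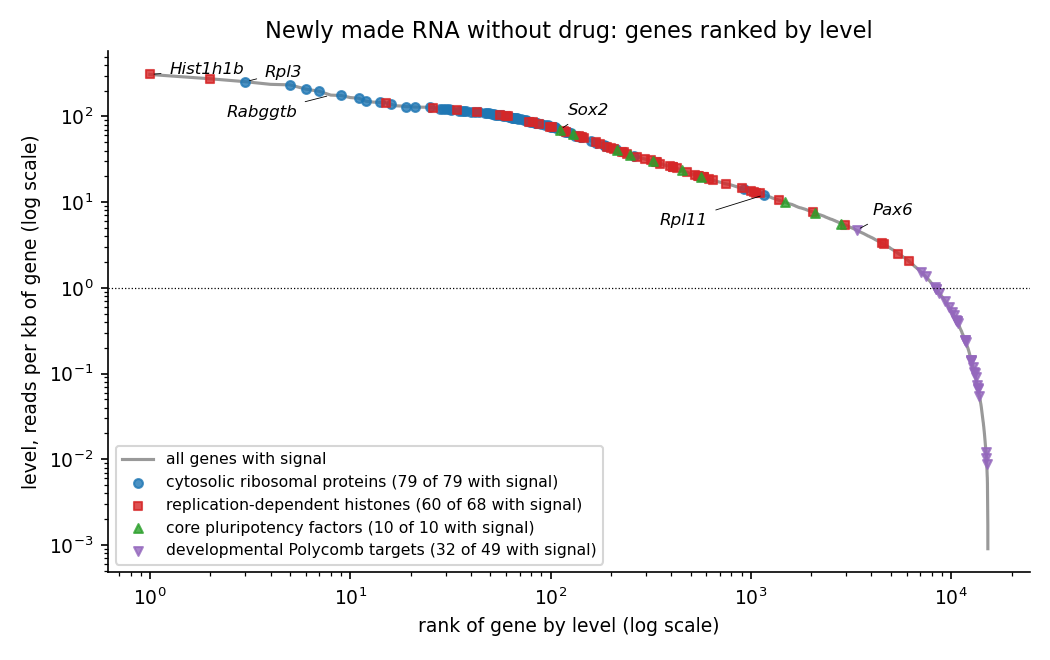
Level of newly made RNA without drug, in reads per kilobase of gene, against the rank of each gene with signal, both on log scales. Blue circles are ribosomal protein genes, red squares histone genes, green triangles core pluripotency factors and purple triangles developmental Polycomb targets; the dotted line marks 1 read per kb. Ribosomal protein and histone genes fill the left end up to 309 reads per kb, while 4 of the 49 Polycomb targets lie above the dotted line.

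A pair of linker histone genes headed the ranking. Hist1h1b, which encodes histone H1.5, reached 309 reads per kb (interval 270 to 351, 229 net reads), and Hist1h1a, which encodes H1.1, reached 275 (238 to 315). Their intervals overlap, and that of Hist1h1a also overlaps those of Rpl3 (241 to 268), 1500012F01Rik (219 to 255) and Rps12 (213 to 256). The interval of Hist1h1b lies above those of Rpl3, 1500012F01Rik and Rps12. Counting does not resolve the order of the histone pair, or that of Hist1h1a, Rpl3, 1500012F01Rik and Rps12. Rpl3 followed at 254 reads per kb, then the snoRNA host 1500012F01Rik at 237, Rps12 at 233, Rps9 at 208 and Rpl12 at 196. Rabggtb, the beta subunit of the Rab geranylgeranyl transferase, was at 177, Rplp1 at 175, and Atf4, the transcription factor of the integrated stress response, at 166. Genes that followed were Rpl27a at 163, Rps24 at 150.2, Ftl1, the ferritin light chain, at 147, and the histone gene Hist1h4b at 145. Mcl1, an anti-apoptotic protein of short half-life, was at 133, the glycolytic enzyme gene Gapdh at 132, the chaperone gene Hsp90ab1 at 129.7, Actb at 128, the ribosome-bound scaffold gene Gnb2l1 at 128 and Tubb5 at 125. The 40 highest genes ended with Txnip, a thioredoxin-binding protein induced by glucose, at 114 and Rpl13 at 113.

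Of the 40 highest genes, 22 encoded cytosolic ribosomal proteins and 5 replication-dependent histones, which make up 0.350% and 0.301% of all genes. Of the 100 highest, 57 were ribosomal protein genes and 13 histone genes. Another 3 were in the elongation and termination list (Eef1b2, Eef2 and Tpt1, the last a translationally controlled protein), 3 were initiation factor genes and 3 glycolytic enzyme genes, and 7 belonged to none of the 72 lists described here. Among the 40 highest, 15 had a small nucleolar RNA (snoRNA) gene within their span (37.5%), against 2.08% of all annotated genes. Ribosomal protein genes with a snoRNA in the span had a median of 99.6 reads per kb (30 genes), and those without one 94.6 (49 genes). Among other genes, 19.1% of the 424 with a snoRNA in the span were in the highest 10%, against 9.72% of the 21297 without; the snoRNA split was chosen after the values were seen. Rabggtb, 1500012F01Rik and 1810032O08Rik each have 3 such snoRNA genes, and later annotation (GENCODE M21) gives both Rik genes as noncoding transcripts. How much of these levels comes from the snoRNAs was not tested.

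The promoters of the leading genes differed in sequence. Shown are the 100 bases before the RefSeq start of genes that led the ranking or stand for pluripotency, 5′ to 3′ on the gene's strand, from the GRCm38.p6 promoter table. Capitals mark any of 8 core promoter and factor motifs, found on either strand: the TATA box TATAAA, the CCAAT box CCAAT (as ATTGG on the other strand), the GC box GGGCGG, the ETS site CCGGAAG, the E-box CACGTG, the cyclic AMP response element TGACGTCA, and the consensus sites of NRF1 and YY1.
Hist1h1b, chr13:21780626-21780725, minus strand, GRCm38.p6: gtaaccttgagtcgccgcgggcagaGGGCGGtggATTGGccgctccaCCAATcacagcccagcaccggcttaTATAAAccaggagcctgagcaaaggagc
Hist1h1a, chr13:23763568-23763667, plus strand, GRCm38.p6: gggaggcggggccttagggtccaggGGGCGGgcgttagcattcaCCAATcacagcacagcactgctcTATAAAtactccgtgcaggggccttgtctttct
Hist1h2ab, chr13:23750988-23751087, plus strand, GRCm38.p6: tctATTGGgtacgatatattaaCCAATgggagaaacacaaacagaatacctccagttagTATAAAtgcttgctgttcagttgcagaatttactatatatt
Rps12, chr10:23787210-23787309, minus strand, GRCm38.p6: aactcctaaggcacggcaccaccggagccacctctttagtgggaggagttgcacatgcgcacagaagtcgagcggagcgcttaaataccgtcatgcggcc
Rps9, chr7:3703941-3704040, plus strand, GRCm38.p6: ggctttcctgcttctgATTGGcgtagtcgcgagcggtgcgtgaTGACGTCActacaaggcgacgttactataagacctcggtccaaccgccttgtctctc
Rps21, chr2:180257279-180257378, plus strand, GRCm38.p6: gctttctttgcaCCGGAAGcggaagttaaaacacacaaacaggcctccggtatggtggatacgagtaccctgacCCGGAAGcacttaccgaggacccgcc
Rps7, chr12:28635954-28636053, minus strand, GRCm38.p6: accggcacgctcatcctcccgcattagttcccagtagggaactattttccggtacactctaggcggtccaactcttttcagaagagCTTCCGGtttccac
Rabggtb, chr3:153912967-153913066, minus strand, GRCm38.p6: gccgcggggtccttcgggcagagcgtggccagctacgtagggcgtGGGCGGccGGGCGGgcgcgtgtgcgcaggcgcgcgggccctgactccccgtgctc
Mcl1, chr3:95658621-95658720, plus strand, GRCm38.p6: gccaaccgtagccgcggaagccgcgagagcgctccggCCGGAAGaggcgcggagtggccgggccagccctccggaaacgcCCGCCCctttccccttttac
Pou5f1, chr17:35505932-35506031, plus strand, GRCm38.p6: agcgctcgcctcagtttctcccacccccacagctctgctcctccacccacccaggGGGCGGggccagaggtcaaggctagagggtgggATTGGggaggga
Sox2, chr3:34649895-34649994, plus strand, GRCm38.p6: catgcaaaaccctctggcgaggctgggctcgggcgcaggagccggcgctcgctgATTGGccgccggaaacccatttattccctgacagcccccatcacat
The 3 histone promoters hold a TATA box, which starts 28 bases before the start of Hist1h1b and 33 before that of Hist1h1a, with CCAAT boxes upstream. Of the ribosomal protein promoters shown, Rps21 and Rps7 have ETS sites, Rps9 has a cyclic AMP response element, and Rps12 has none of the 8 motifs in these 100 bases. The promoters of Gapdh and Fgf4 held none in this window either.

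Over all promoters, CpG content followed the level. A promoter in RefSeq, 250 bases before to 50 after the start, was matched for 17110 genes, among them 1834 of the highest 10% and 79 of the highest 100. The ratio of observed to expected CpG had a median of 0.183 in genes listed at 0, 0.502 in the lowest 10% of genes with signal and 0.829 in their highest 10%. A ratio above 0.6 was found in 84.4% of promoters of the highest 10% of all genes, against 49.5% of all promoters. Seen from the promoter, 1.32% of genes with a ratio under 0.2 were in the highest 10%, and 23.8% of genes with a ratio of at least 1.0. CpG-rich promoters are typical of genes active in most cell types and, when silent, are where Polycomb complexes are found.

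TATAAA, counted anywhere in the promoter on either strand, was more frequent at both ends of the ranking. TATAAA was present in 25.2% of promoters of genes listed at 0, in 5.61% to 6.37% from the fourth to the ninth 10% of genes with signal, and in 21.5% among the 100 highest genes. Histone promoters held it in 57.4% of 61 cases and CCAAT in 85.2%, against 12.9% and 38.8% of all promoters. Within the window from 50 to 11 bases before the start, on the gene's strand, TATAAA was found in 26.2% of histone promoters, 0% of 58 ribosomal protein promoters and 3.17% of all promoters. In that window it was in 6.91% of promoters of genes listed at 0 and 11.4% of those of the 100 highest genes. Anywhere in the promoter, on either strand, 8.62% of ribosomal protein promoters held TATAAA, and 40.8% of 922 olfactory receptor promoters. In the narrower window it was in 1.84% of olfactory receptor promoters. The median GC content was 35% in olfactory receptor promoters, 46.3% in genes listed at 0, 45.3% in histone genes and 57.3% in the 100 highest genes, against 56.7% in all promoters. How far base composition bears on the TATAAA shares was not tested. Without histone genes, TATAAA was found in 7.68% of promoters of the highest 10%, against 9.21% with them. The share without histone genes was not computed for the 100 highest genes. The ETS site was in 39.7% of ribosomal protein promoters, 34.3% of mitochondrial ribosomal protein promoters and 36.4% of those of nucleolar ribosome biogenesis genes, against 12.1% of all promoters. None of 16 glycolytic and 1.64% of histone promoters held it. Genes with the YY1 site had the largest share in the highest 10% among the 8 motifs, 31.3% of 224 genes, against 10.4% of genes without it.

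**Figure D2:**
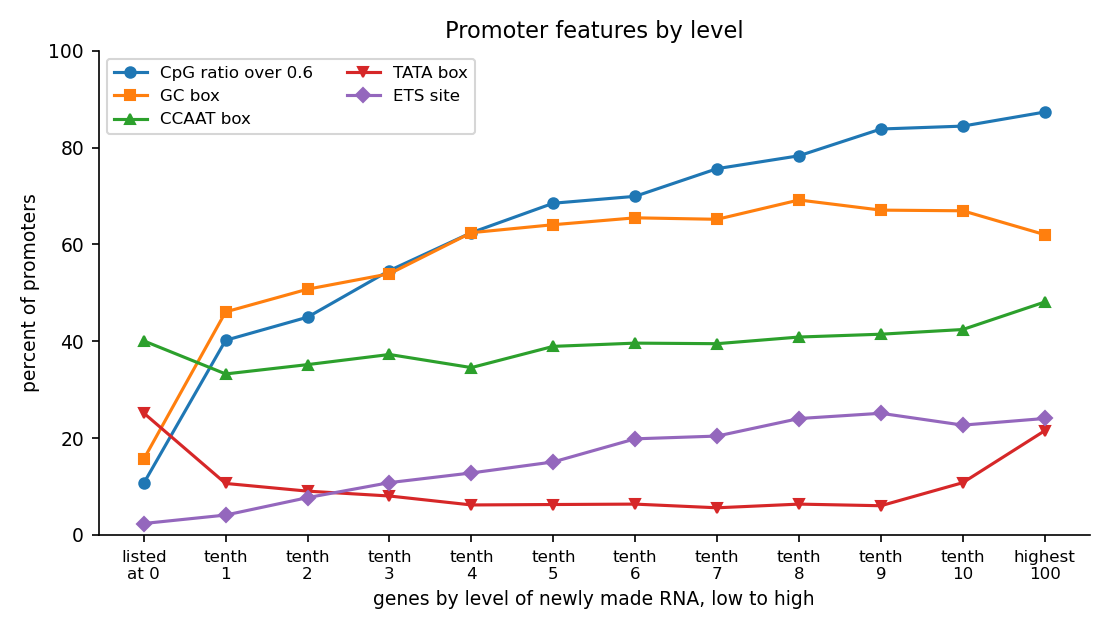
Percent of promoters with a CpG ratio over 0.6 or with a TATA box, CCAAT box, GC box or ETS site on either strand, for genes listed at 0, for each 10% of the genes with signal and for the 100 highest genes, low to high. The CpG line climbs from 10.7% to 87.3%, and the TATA line is high at both ends, 25.2% and 21.5%.

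Protein synthesis led newly made RNA per kilobase of gene. All 79 cytosolic ribosomal protein genes, whose products build the ribosome, were in the highest 10% (10% of all genes), with a median of 95.02 reads per kb against 0.308 for all genes. These genes are short, with a median length of 3220 bp against 16138 bp for all genes, and held 2.39% of all net reads. The 47 genes of the large subunit had a median of 94.9 and the 32 of the small subunit 96.4. The middle 50% of the ribosomal protein genes lay between 74.5 and 115 reads per kb, a ratio of 1.54, against 14.4 for all genes with signal. A few lay far below the rest: Rps3a1 at 34.4, Rpl24 at 14.2 and Rpl11 at 12.2, the last over a listed gene length of 25163 bp. Translation elongation and termination factors had a median of 43.3, led by Eef1b2 at 118 and Eef2, the translocation factor, at 108; Gspt1, which encodes a termination factor, was lowest at 4.203. Initiation factors had a median of 10.4 with 29 of 43 in the highest 10%, led by the helicase gene Eif4a2 at 92.5 and by Eif1 at 88.2, while Eif4e3, a cap-binding homologue, was lowest at 0.0240.

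Ribosome assembly and the other translation genes were lower. Nucleolar ribosome biogenesis genes had a median of 13.2 reads per kb, with 28 of 41 in the highest 10%; the snoRNP protein Nop56 was at 70.9, nucleophosmin (Npm1) at 67.7, and Gnl2 lowest at 2.14. Mitochondrial ribosomal proteins had a median of 6.95, with 38 of 76 in the highest 10%, from Mrpl17 at 44.1 to Mrps28 at 0.575. Aminoacyl-tRNA synthetases, which charge tRNAs, had a median of 4.10 with 8 of 37 in the highest 10%.

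**Figure D3:**
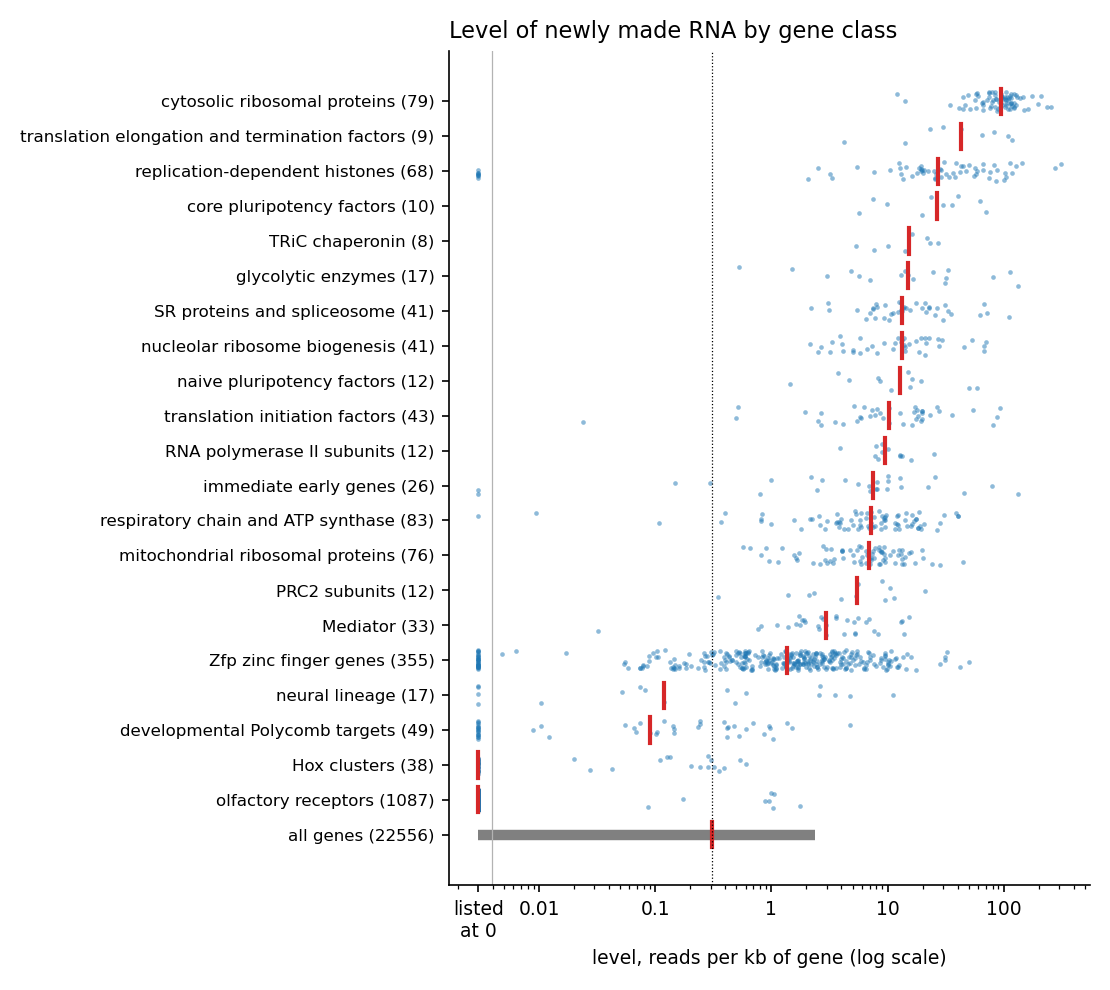
Level of newly made RNA of every member of 21 gene classes, in reads per kilobase of gene on a log scale, with the class size in brackets; members listed at 0 are at the left edge and red bars are medians. The grey bar spans the middle 50% of all genes and the dotted line is their median, 0.308. Class medians descend from 95.02 in ribosomal proteins to 0 in olfactory receptors.

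Histone genes ranged widely. Replication-dependent histone genes, which are transcribed in S phase and typically have no introns, had a median of 27.1 reads per kb, with 55 of 68 in the highest 10%. The median length of the list was 529.5 bp, but some H2B genes were counted over far longer spans. These included Hist1h2be (37382 bp, 2.51 reads per kb), Hist2h2bb (9280 bp, 26.1) and Hist1h2bc (8289 bp, 5.43). The 6 H1 genes had a median of 79.2 reads per kb, the 13 H4 genes 33.6, the 19 H2A genes 31.8, the 12 H3 genes 25.2 and the 18 H2B genes 16.3. The highest gene of each core histone type was Hist1h4b at 145, Hist1h2ab at 127, Hist1h2bh at 113 or Hist1h3d at 104. The 8 members listed at 0 were Hist2h2aa1, Hist2h2aa2, Hist1h2ao, Hist1h2ap, Hist1h2bq, Hist1h2br, Hist1h2bl and Hist1h4m. Histone genes have near-identical copies, and how reads matching several copies were counted is not given, so levels of single histone genes are uncertain. Among the replication-independent variants, H2afx reached 80.4 and H2afz 29.2, against 4.88 for H2afv. Replication factors had a median of 6.33, led by the helicase subunit Mcm7 at 50.6, the licensing factor Cdt1 at 40.5 and the nucleotide reductase subunit Rrm2 at 40.1. Mitotic genes had a median of 8.42, led by Cdk1 at 47.8 and Ccnb1 at 37.8.

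The core pluripotency factors had a median close to that of the histone genes, and the other stem cell lists lower ones. The 10 core factors had a median of 26.7 reads per kb, with 9 in the highest 10%. Sox2 was at 69.6 reads per kb (interval 59.6 to 80.9), Pou5f1 at 62.5 (55.5 to 70.0), Sall4 at 40.7, Utf1 at 35.5, Nanog at 30.0 (26.1 to 34.2) and Zfp281 lowest at 5.63. The intervals of Sox2 and Pou5f1 overlap, and that of Nanog lies below both. Naive pluripotency factors had a median of 12.8 with 9 of 12 in the highest 10%, led by Klf2 at 58.3 and Zfp42 (Rex1) at 50.3; Esrrb was at 15.7, Klf4 at 8.64 and Prdm14 lowest at 1.46. Other stem cell genes had a median of 15.5 and were led by Fgf4, the autocrine growth factor, at 112, L1td1 at 43.9 and Gdf3 at 43.6. Dppa5a was listed at 0. The counting of reads that match several genes is not given, so the value of Dppa5a may not mean absent transcription. The FGF pathway was led by the inhibitors Spry4 at 50.8 and Spry2 at 32.0, the LIF pathway by Pim3 at 34.0 and Socs3 at 23.2, and the Nodal and BMP list by the BMP targets Id3 at 42.5 and Id1 at 33.6. The Wnt list was led by beta-catenin (Ctnnb1) at 17.1 and the receptor genes Fzd5 at 15.4 and Fzd7 at 14.4. The kinases Jak1 and Jak2, which act upstream of Pim3 and Socs3, were at 0.363 and 0.131.

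Energy metabolism was led by glycolysis. The 17 glycolytic genes had a median of 15.1 reads per kb with 12 in the highest 10%: Gapdh at 132, Eno1 at 113 and Pkm at 80.5, down to Hk1 at 0.522. Genes of the tricarboxylic acid cycle had a median of 3.54, from Mdh2 at 17.2 to Sdha at 0.107, the last on 3 net reads (interval 0.0221 to 0.313). The 83 respiratory chain and ATP synthase genes had a median of 7.17, with 13.4 for ATP synthase, 11.7 for complex IV, 9.30 for complex III, 5.43 for complex I and 4.99 for complex II. Uqcr10 of complex III led at 40.1, close to Atp5b of ATP synthase at 40.0. Cox6a2, a muscle isoform, was listed at 0.

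RNA processing genes had higher medians than the lists of the transcription machinery. SR proteins and spliceosome genes had a median of 13.3 reads per kb with 36 of 41 in the highest 10%, led by Srsf2 at 111 and Srsf7 at 72.1; Srsf2 overlaps Mettl23 on the opposite strand. The hnRNP genes had a median of 13.3, led by Hnrnpa1 at 59.7. RNA polymerase II subunits had a median of 9.51 with 11 of 12 in the highest 10%, from Polr2l at 25.1 to Polr2b at 3.91. Mediator genes had a median of 2.94 and TFIIH genes 3.05, with 1 of 10, Cdk7 at 7.70, in the highest 10%. Factors of P-TEFb and elongation had a median of 5.45, led by the 7SK capping enzyme Mepce at 26.4, the P-TEFb inhibitor Hexim1 at 18.8 and the kinase Cdk9 at 16.7. Chaperones were led by Hsp90ab1 at 129.7 and Hspa8 at 93.7, and stress-inducible Hspa1a was at 0.677 with its near-identical copy Hspa1b listed at 0. The counting of reads that match both copies is not given, so the levels of Hspa1a and Hspa1b are uncertain. The cytoskeletal genes Actb at 128, Tubb5 at 125 and Pfn1 at 82.3 were also among the 100 highest.

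Chromatin regulators lay below the leading classes and above the median of all genes. PRC2 genes had a median of 5.44 reads per kb with 5 of 12 in the highest 10%. The accessory subunit gene E130012A19Rik (Epop) was highest at 21.1. Jarid2, another accessory subunit, was at 11.4 (interval 10.9 to 11.9), Eed at 8.96 (7.86 to 10.2), Suz12 at 5.53 (4.84 to 6.30) and the methyltransferase Ezh2 at 2.11 (1.77 to 2.49). The intervals of Jarid2, Eed, Suz12 and Ezh2 do not overlap. PRC1 genes had a median of 3.52, led by the chromodomain subunit Cbx7 at 23.6 and by Phc1 at 14.3, with Ring1 listed at 0 and its paralogue Rnf2 at 5.09. Tet1 at 23.1 and Uhrf1 at 23.0 led the DNA methylation genes, and Trim28, the corepressor of KRAB zinc finger proteins, was at 85.4. The 355 Zfp zinc finger genes had a median of 1.37 and 38 in the highest 10%.

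Immediate early genes were unequal. The 26 members had a median of 7.55 reads per kb and 14 in the highest 10%, with Mcl1 at 133, Ier2 at 78.9 and Ctgf at 45.05. Fos was at 0.296 and Egr2 at 0.149, and Fosb and Egr3 were listed at 0. The 20 p53 pathway genes had a median of 9.65, led by Gadd45a at 42.4, Bax at 38.2 and Trp53 itself at 27.5, with the death receptor gene Fas lowest at 0.0269. Mycn at 65.0 reads per kb was 2.87-fold above Myc at 22.7 (interval 2.32 to 3.57).

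Other lists were split within themselves. Of the 4 metallothionein genes, which encode metal-binding proteins, Mt1 was at 67.2 reads per kb and Mt2 at 52.7, while Mt3 and Mt4 were listed at 0. Tubulin genes had a median of 4.32, with Tubb5 at 125, Tuba1b at 73.6 and Tubb4b at 59.4, while Tubg2, Tubb4a and Tuba3b were listed at 0. The 19 G1 cyclin and CDK inhibitor genes had a median of 2.55 and 5 in the highest 10%; Cdk4 was at 33.1 and Ccnd1 at 22.2, and the inhibitor genes Cdkn1c and Cdkn2a were listed at 0. The 25 imprinted genes had a median of 0.342, led by Mcts2 at 51.8, and 6 were listed at 0. The 359 solute carrier genes had a median of 0.402 and 31 in the highest 10%, led by the amino acid transporter gene Slc38a2 at 56.2 and the glucose transporter gene Slc2a1 at 33.4. The 44 collagen genes had a median of 0.0174, with Col18a1 at 8.96 the only member above 1 read per kb.

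Most lineage lists had medians below that of all genes, 0.308 reads per kb. In a whole culture, fewer cells that transcribe a gene and less transcription per cell cannot be told apart. The 49 developmental Polycomb targets had a median of 0.0906 reads per kb, 17 were listed at 0 and none was in the highest 10%; Pax6 was highest at 4.71, then En2 at 1.52. Of 38 Hox genes, 16 had signal and none passed 1 read per kb, with Hoxd13 highest at 0.608 on 2 net reads. The trophectoderm list was the exception, with a median of 0.913 and 5 of 13 members above 1 read per kb (38.5%, against 36.9% of all genes). Mesoderm genes had a median of 0, and Tbx6 at 5.89 was the highest. Neural genes had a median of 0.120, with Tubb3 at 11.1 and Otx2 at 3.51. Among lineage lists the members in the highest 10% were Apoe at 21.3 in the primitive endoderm list, Tubb3, Tfap2c at 9.52 in the trophectoderm list, Eif1a at 19.9 in the 2-cell list and Fn1 at 7.04 in the fibroblast list. Of 1087 olfactory receptor genes 8 had signal (0.736%), of 321 vomeronasal receptor genes 22, and of 10 globin genes none, against 67.6% of all genes.

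Lists of complex subunits spanned a narrower range of levels than all genes with signal. In 11 of 11 such lists the ratio of the upper to the lower quartile was below the 14.4 of all genes with signal. Some of these lists join several complexes, as those of the respiratory chain and ATP synthase and of cohesin and condensin do. It was 1.54 in the ribosome, 1.58 in RNA polymerase II, 2.20 in the 20S proteasome, 2.34 in the TRiC chaperonin and 2.78 in the 19S proteasome, and reached 4.29 in PRC2 and 4.71 in cohesin and condensin. Lists that are not complexes could be as narrow as some of these: the quartiles of the naive pluripotency factors lay at 7.37 and 17.1 reads per kb, and those of the SR protein and spliceosome list at 8.08 and 22.7. The extremes were further apart. Proteasome genes of the 20S core ran from Psmb6 at 21.7 reads per kb to Psmb2 at 2.49, 8.69-fold, and TRiC genes from Cct2 at 27.2 to Cct6a at 5.31, 5.11-fold. Paralogues of other subunits set the low end in Mediator, where Med12l was at 0.0321, and in the respiratory chain, where Cox7b2 was at 0.00949 among members with signal.

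Paralogues of one function were mostly used unequally. The 40 pairs set the form usual in embryonic stem cells or most tissues against another form. They were chosen with earlier results of these data known, so the counts describe these pairs and are not a test. In 33 pairs both forms had signal and recovered net reads, and in 31 of these the first form was higher by a counting interval above 1. Pkm was 214-fold above the liver and red cell form Pklr (interval 83.5 to 787), and Hk2 46.8-fold above Hk1 (35.9 to 62.0). Lin28a was 78.4-fold above Lin28b, Tet1 26.5-fold above Tet3 and 5.69-fold above Tet2, Dnmt3b 11.04-fold above Dnmt3a, and Ezh2 1.52-fold above Ezh1 (1.09 to 2.15). The exceptions were Eif4a1, at 0.873 times Eif4a2 (0.771 to 0.988), and the H3.3 genes H3f3b and H3f3a, with a ratio of 1.06 (0.807 to 1.38). Both Eif4a genes have snoRNA genes in their span, 3 in Eif4a1 and 5 in Eif4a2. In 6 pairs the other form was listed at 0, among them Eef1a2, Aldoc and Pgk2.

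**Figure D4:**
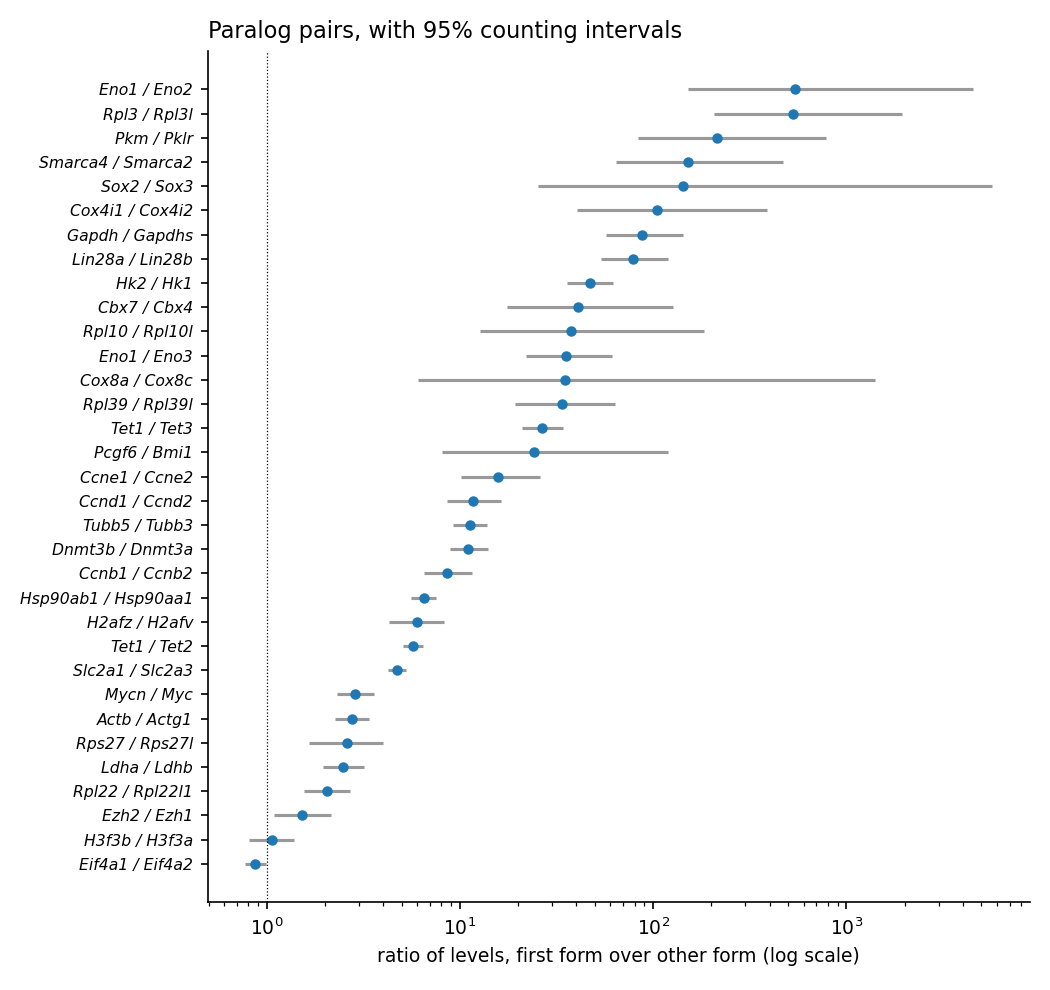
Ratio of the level of the first named form over the other form for the 33 pairs with signal in both, on a log scale, with exact 95% intervals of the ratio of net reads as lines. The dotted line marks equal levels; 31 of 33 intervals lie to its right, the interval of Eif4a1 over Eif4a2 lies to its left and that of H3f3b over H3f3a crosses it.

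Level and net reads ranked genes of different length. Over all genes the median level was 0 under 2 kb and at 2 to 5 kb, 0.190 at 5 to 10 kb, 0.835 at 10 to 20 kb, 0.738 at 20 to 50 kb and 0.0362 over 200 kb. The highest 10% held 8.89% of genes under 2 kb, 16.8% at 2 to 5 kb and 0.204% over 200 kb. The median level of genes with signal was 3.91 reads per kb under 2 kb, 3.67 at 2 to 5 kb, 1.32 at 20 to 50 kb, 0.304 at 100 to 200 kb and 0.0523 over 200 kb. The share with signal ran the other way, from 24.7% of genes under 2 kb to 89.7% of genes over 200 kb. One net read gives a short gene a higher level than a long one, so the lowest level a gene with signal can show falls with its length, and the medians over genes with signal carry that limit. The 40 highest genes by level had a median length of 3178 bp, and the 40 genes with most net reads one of 100816 bp, and the 2 rankings shared 2 genes. Of 2418 genes over 100 kb, 26 (1.08%) were in the highest 10% by level.

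The 20 genes with most net reads had a median length of 112038 bp. Fgfr2 came first with 7440 net reads but ranked 5446 by level, and its listed span of 2960899 bp overlaps 30 other protein-coding genes, including Ctbp2, second with 5001. The corepressor gene Ctbp2 was at 36.6 reads per kb. Tns3, which links actin to integrins, held 4020 net reads, the pluripotency factor gene Esrrb 2516, the histone acetylation scaffold gene Phf17 2465, the stem cell ubiquitin ligase gene Trim71 2211, the PRC2 gene Jarid2 2192 and Tet1 2181. Pkm, with 1853 net reads at 80.5 reads per kb, was high on both scales.

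**Figure D5:**
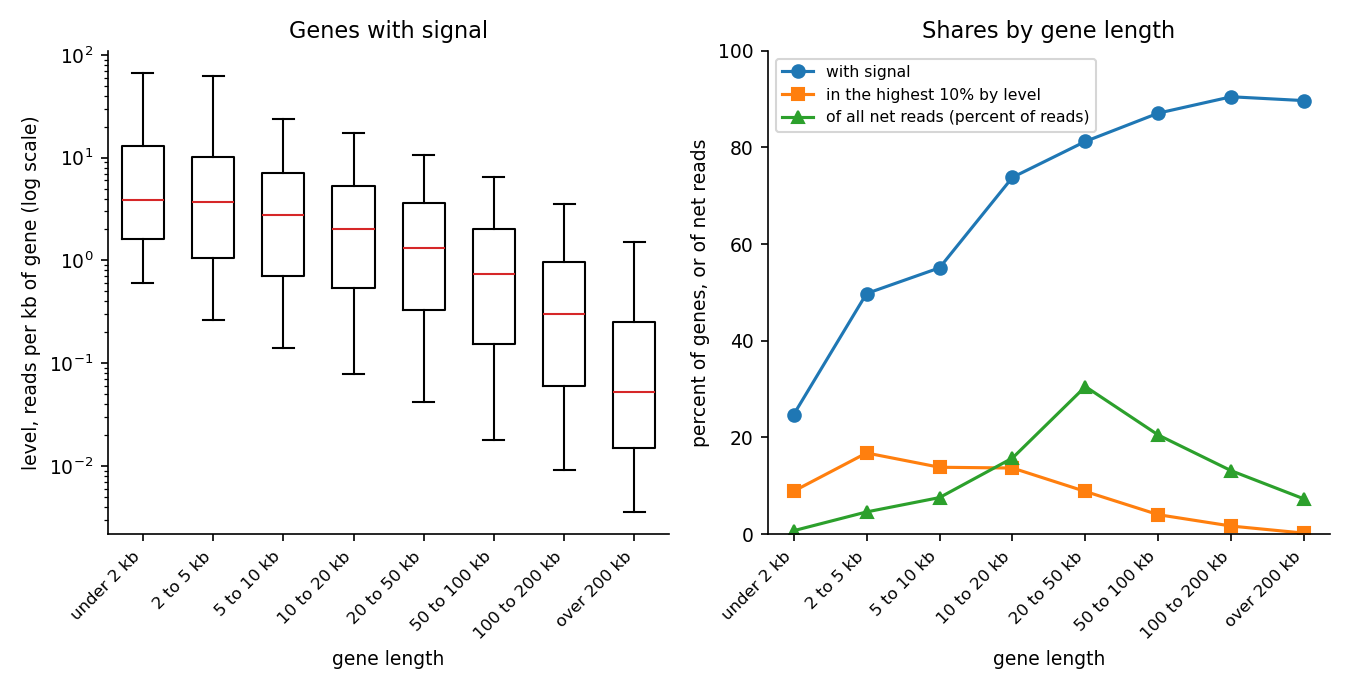
Left, level of genes with signal in reads per kilobase (log scale) by gene length; boxes are quartiles, red lines medians and whiskers the 5th and 95th percentiles. Right, the percent of genes in each length bin with signal or in the highest 10% by level, and the percent of all net reads in the bin. Among genes with signal, median level falls from 3.91 to 0.0523 reads per kb while the share with signal grows from 24.7% to 89.7%.

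Levels also differed between chromosomes. Chromosome 11 had 15.1% of its 1613 genes in the highest 10% and a median of 0.811 reads per kb, and chromosomes 15 and 17 had 14.6% and 13.5%. Chromosome 14 had 5.25% and a median of 0.0731. The X chromosome had 3.80% of 921 genes in the highest 10%, against 10.6% of autosomal genes, and 52.0% of its genes had signal, against 70.4%. The X median was 0.0107 reads per kb and the autosomal median 0.394; among genes with signal the medians were 0.562 and 1.31. The highest gene on X was Rpl10 at 109.8 reads per kb. Chromosome Y, as annotated, had 1 gene in the highest 10%, Erdr1, at 55.1, with 1748 of the chromosome's 1985 net reads. Whether reads of Erdr1 also match elsewhere was not tested. The highest gene was Eif4a2 at 92.5 on chromosome 16, Rps14 at 115 on chromosome 18 and Cfl1, which encodes an actin-severing protein, at 72.2 on chromosome 19. Genes that overlap another protein-coding gene had a median of 1.21 reads per kb (4630 genes), and those that overlap none 0.206 (17170 genes).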

How the data were processed

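Signal values deposited by the authors were used for the no-drug condition, in 1 column for 2 labelled and 2 unlabelled samples; the other 4 conditions served only to recover gene lengths. Per the file headers, the signal is in reads per kilobase of gene, negative values were set to 0, and identifiers are those of Ensembl 72. Bowtie and the GRCm38 (mm10) genome are named in the submitters' processing notes. The sources used here do not give how replicates and unlabelled libraries were combined, the depth per sample or the handling of reads with several matches. P-values would need replicate columns, and none are given.

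Gene lengths were taken as the span in GENCODE M21 or RefSeq, or solved from the values of a gene. Values were taken as whole multiples, within 0.01 reads, of the value of 1 read over that length. For genes with signal, 9912 matched the annotated gene span exactly, 1500 a transcript span and 3378 a length within 20% of the gene span. A further 268 had a length from the values alone, 179 had several possible lengths and 1 had none. On simulated data for 14604 genes, 98.3% of lengths were recovered exactly and 1.06% were left without one. Simulated lengths were the annotated span or close to it, and no background was removed. Lengths from transcript spans or from values alone were therefore not checked. Of 22556 genes, 756 were not in the annotation, and 27 names turned into dates were restored.

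Levels were ranked, and 72 gene lists described by counts and medians beside all genes; each name counts once per list. Named genes are the 40 highest by level and 20 by net reads, per list the 3 highest, the lowest with signal and up to 6 members listed at 0, the paralogue pairs, the highest gene per chromosome and 12 fixed genes; a few others are named after their values were seen. The gene lists, their members and the paralogue pairs were chosen with earlier results of these data known. Promoters are from RefSeq (GRCm38.p6), matched by symbol or synonym on the same chromosome. Python 3.11.15, pandas 2.3.3, numpy 2.4.6, SciPy 1.17.1 and matplotlib 3.10.9 were used. Alternatives were ranking by net reads, exact lengths, no overlapping genes, no single-exon genes, 20 net reads as the minimum, genes with signal, length-matched background, and, added after the data were seen, no snoRNA host genes and no histone genes.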

Additional observations from a re-analysis of the deposited data

How the results depend on the processing

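No paired analysis was possible because the table holds 1 column per condition and no replicate columns, and leaving out each replicate was not run for the same reason. The share of genes above 1 read per kb, 36.9%, was 34.4% with exact lengths only, 33.6% without overlapping genes, 38.9% without single-exon genes, and 38.3% of genes held at least 20 net reads. Ribosomal protein and histone genes were 70 of the 100 highest and between 57 and 63 without overlapping, single-exon, inexact or snoRNA host genes, but 3 of 100 when ranked by net reads. Genes over 100 kb were 1.08% in the highest 10% by level and 17.5% by net reads. TATAAA, in 9.21% of promoters of the highest 10%, was in 21.5% for the 100 highest genes and 7.68% without histone genes, and a CpG ratio over 0.6, in 84.4%, was in 87.3% for the 100 highest. Lists with most members above the median of all genes numbered 50 of 72, and between 46 and 50 (of 71 or 72) under every alternative run. The 11 lists of complex subunits and the paralogue pairs (31 of 33, 29 without division by length) kept their counts within 1.5 times. These lists crossed 50% of members above the median: trophectoderm (61.5% as reported, 38.5% by net reads, 40.0% among genes with signal), Trim genes (46.2%, 48.9% and, within length bins, 48.5%), imprinted genes (45.8% by net reads, 47.6% without single-exon genes, 36.8% among genes with signal, 48.0% within length bins, 47.8% without snoRNA hosts), solute carriers (49.4% without single-exon genes, 39.2% among genes with signal, 46.2% within length bins), kinesins (70.3% as reported, 45.7% among genes with signal), neural genes (52.9% within length bins) and taste receptors (10.5% as reported, 66.7% of 3 left without single-exon genes). The cause of these changes was not tested. Depth limits the low end: the median gene with signal held 28 net reads, and a gene listed at 0 may have signal that the background removed.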
